A study of Homo sapiens with 6 samples.

Results

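The protein arginine methyltransferases, or PRMT enzymes, were described at the level of their transcripts in the human cell line MIA PaCa-2, which was established from a pancreatic carcinoma. The 9 genes were taken by symbol from the count table: the 8 methyltransferase genes PRMT1, PRMT2, PRMT3, CARM1, PRMT5, PRMT6, PRMT7 and PRMT9, and WDR77, the partner subunit of PRMT5. All 9 were found among 60604 genes and all 9 passed the filter on low counts, which left 15022 genes. The family was chosen by the measured difference between the groups, since PRMT6 is among the largest falls, so the values of the 9 genes are given as a description and without p-values. The cells of 1 group received black phosphorus (BP), phosphorus in stacked atomic sheets, plus Huaier, which is extracted from a medicinal fungus, and the other received BP alone. The BP+Huaier group received BP at 12.5 µg/ml and Huaier at 10 mg/ml, and the BP group received BP at 12.5 µg/ml, with 3 libraries in each group. Genotype was given as wild type for every library, and all 6 carried BP, so no untreated cells and no cells with Huaier alone enter the comparison. The sources used here do not give the time of treatment. The labels do not state whether a group's 3 libraries were grown as separate cultures, so each p-value covers only library-to-library spread, possibly technical in origin.

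PRMT enzymes move methyl groups from S-adenosylmethionine onto arginine side chains of histones and of many RNA-binding proteins. Type I enzymes (PRMT1, PRMT2, PRMT3, CARM1, PRMT6 and PRMT8) place both methyl groups on the same nitrogen, type II enzymes (PRMT5 and PRMT9) place them on different nitrogens, and PRMT7, of type III, adds a single one. The marks change protein contacts, are read by Tudor domain proteins, and act in transcription, splicing and the assembly of small nuclear ribonucleoproteins. In MIA PaCa-2, as in many pancreatic carcinomas, the chromosome 9 region with CDKN2A and MTAP is known to be deleted, and loss of MTAP makes cells depend more on PRMT5.

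Total counts on genes lay between 15808056 and 16856727 in BP+Huaier and between 15657593 and 17036565 in BP. The line markers KRT8, KRT18 and VIM summed to between 4394 and 6252 CPM in BP+Huaier and between 4826 and 5004 CPM in BP (CPM is the count scaled to a common library size, here by TMM). Within this sum KRT18 rose 1.71-fold, with 771 ± 251 CPM in BP+Huaier and 451 ± 14.1 CPM in BP (SD, n = 3 each; edgeR adjusted p = 0.037). KRT8 and VIM did not pass (edgeR adjusted p = 0.18 and 0.96). The 12 markers of leukocytes, endothelium, fibroblasts, acini, islets and epithelial junctions summed to between 17.2 and 21.3 CPM in BP+Huaier and between 18.7 and 22.5 CPM in BP. Of these 12, 7 were at 0 in every BP+Huaier library and 8 in every BP library, PTPRC, DCN, LUM, PRSS1, CELA3A, INS and GCG in both. The similar sums hold opposite changes, since COL1A1 rose 4.40-fold, with 5.92 ± 0.65 CPM in BP+Huaier and 1.34 ± 0.10 CPM in BP (SD, n = 3 each; edgeR adjusted p = 8.9e-04). CDH5 fell 1.49-fold, with 12.7 ± 1.69 CPM in BP+Huaier and 19.0 ± 1.92 CPM in BP (SD, n = 3 each; edgeR adjusted p = 0.030), and the part of these markers in the results was not tested. BP+Huaier 3 stood nearer to BP than its fellow libraries did. Principal component 1, which held 72.4% of the variance, placed BP+Huaier 1, 2 and 3 at 65.1, 66.0 and 11.5 and every BP library between -50.5 and -43.4. Ratios to BP also followed the GC content of transcripts in some libraries. Taken across 14896 genes, and genes are no independent replicates, this correlation was r = 0.39, 0.27 and 0.028 in BP+Huaier 1, 2 and 3, and r = 0.034, -0.44 and 0.42 in BP 1, 2 and 3 against the other BP libraries.

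PRMT6 was 6.01-fold lower with Huaier added. PRMT6 (ENSG00000198890.9, GRCh38 chromosome 1, 107056674 to 107067636, plus strand) is a nuclear type I enzyme that methylates the tail of histone H3 and is known mostly as a repressor of transcription. It had 3.84, 2.88 and 2.54 CPM in BP+Huaier 1, 2 and 3, against 18.5, 18.8 and 18.2 CPM in BP 1, 2 and 3. All 3 BP+Huaier libraries lay far below the BP libraries, the groups did not overlap, and the BP libraries differed from each other by little. The means were 3.09 ± 0.68 CPM in BP+Huaier and 18.5 ± 0.30 CPM in BP (SD, n = 3 each), a fitted log2 fold change of -2.59 ± 0.20 (SE). These levels rest on 55, 39 and 44 counts in BP+Huaier and on 337, 354 and 309 counts in BP. Of the 10600 tested genes with a mean of at least 5 CPM, 9, or 0.0849%, had a log2 fold change at or below that of PRMT6, itself included.

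The fall of PRMT6 was as deep in BP+Huaier 3 as in the other libraries of its group. Relative to the BP mean, PRMT6 was at -2.27, -2.69 and -2.87 on the log2 scale in BP+Huaier 1, 2 and 3. For the 1198 genes called lower with a mean of at least 5 CPM, the log2 change in BP+Huaier 3 was a median 0.600 of the mean change in BP+Huaier 1 and 2 (with 0.5 CPM added to each level, quartiles 0.407 and 0.900), and for PRMT6 it was 1.15. A ratio at or above that of PRMT6 was found for 14.2% of them. Among the 28 that were lower by more than 4-fold the median ratio was 0.797, and PRMT6 had the highest. Among the other members the ratio was 1.82 for PRMT2, 1.64 for PRMT7 and 0.518 for PRMT9, and below that for the rest. PRMT6 was chosen on these same values, and its ratio rests on 55, 39 and 44 counts in BP+Huaier 1, 2 and 3. Nothing is therefore read from its rank. No test of this ratio was made.

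PRMT6 has fewer exon blocks than the other members. In the count table its exons merge into 3 blocks, against 11 to 22 blocks for the other 8 genes. Its exons overlapped those of no other gene in the table, as was also the case for PRMT2, PRMT3 and PRMT9. Its nearest protein-coding neighbours, AMY1C at 3297947 bases before it and NTNG1 at 72370 bases after it, had 0 counts in all 6 libraries, where 3 counts correspond to at most 0.222 CPM.

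The windows before the annotated starts are shown for PRMT6 and PRMT9, the members with calls, and for CARM1, whose window holds the most motif copies. They are the 250 bases before the start from RefSeq, GRCh38.p14, 5′ to 3′ on the strand of the gene, and capitals mark the letters of motifs found. PRMT6 lies at chr1:107056424-107056673 on the plus strand, PRMT9 at chr4:147684164-147684413 on the minus strand and CARM1 at chr19:10871303-10871552 on the plus strand.
PRMT6: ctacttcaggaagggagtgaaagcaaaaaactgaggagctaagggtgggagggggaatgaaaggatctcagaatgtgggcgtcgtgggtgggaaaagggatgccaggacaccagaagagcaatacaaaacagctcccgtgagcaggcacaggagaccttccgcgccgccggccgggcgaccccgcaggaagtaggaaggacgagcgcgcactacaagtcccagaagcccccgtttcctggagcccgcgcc
PRMT9: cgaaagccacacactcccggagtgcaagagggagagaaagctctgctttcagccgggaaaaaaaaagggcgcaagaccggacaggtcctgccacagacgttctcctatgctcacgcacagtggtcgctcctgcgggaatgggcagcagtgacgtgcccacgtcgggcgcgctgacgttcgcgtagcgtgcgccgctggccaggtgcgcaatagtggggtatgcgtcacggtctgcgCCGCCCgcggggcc
CARM1: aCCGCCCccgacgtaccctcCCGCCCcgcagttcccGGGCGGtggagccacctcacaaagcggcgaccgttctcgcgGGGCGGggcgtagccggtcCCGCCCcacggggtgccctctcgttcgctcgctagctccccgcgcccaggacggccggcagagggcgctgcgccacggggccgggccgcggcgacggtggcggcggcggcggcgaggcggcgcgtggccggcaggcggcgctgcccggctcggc

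The 7 motifs were searched on both strands in the first windows of all 9 genes. The TATA box (TATAAA) was found in 10.7% of all 35116 windows of this length, the CCAAT box (its letters) in 32.0%, and the GC box (GGGCGG) in 42.6%. The ETS motif (CCGGAAG) was found in 8.52%, the E-box (CACGTG) in 6.34%, the CRE (TGACGTCA) in 1.65% and the AP-1 motif (TGANTCA) in 6.57%. The PRMT6 window held none of the 7, with 60.4% GC and 16 CpG dinucleotides, against medians of 58.0% and 11 over all windows. The window of PRMT9 held 1 GC box, as did those of PRMT1, PRMT7 and WDR77, while PRMT2 and PRMT3 had 2 and CARM1 had 5 in a window of 81.6% GC. PRMT5 had 3 copies of the CCAAT box and PRMT1 had 2. PRMT3 also had 1 E-box and 1 ETS motif. A match describes the letters and is no evidence of a bound factor, and the absence of one says nothing of the factor.

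The protein-coding genes whose levels moved most like those of PRMT6 were NCOA5, PPP1R10, RBPMS, TTC30A and FAM200C. Likeness was the root mean square difference between the log2 CPM of 2 genes over the 6 libraries, each centred on its BP mean, and 10124 genes with a mean of at least 5 CPM were compared. The differences were 0.24 for NCOA5, 0.27 for PPP1R10, 0.29 for RBPMS, 0.32 for TTC30A and 0.42 for FAM200C. Each was lower in BP+Huaier, with log2 fold changes between -2.93 and -2.24. The group difference on which PRMT6 was chosen enters this measure, so genes with a fall of like depth come first. A shared pattern between libraries of a group was not tested. NCOA5 averaged 4.18 ± 1.04 CPM in BP+Huaier and 19.7 ± 0.51 CPM in BP (SD, n = 3 each), close to the levels of PRMT6. PPP1R10, a regulatory subunit of protein phosphatase PP1, had log2 ratios to the BP mean of -1.92, -3.01 and -2.29 in BP+Huaier 1, 2 and 3.

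**Figure D1:**
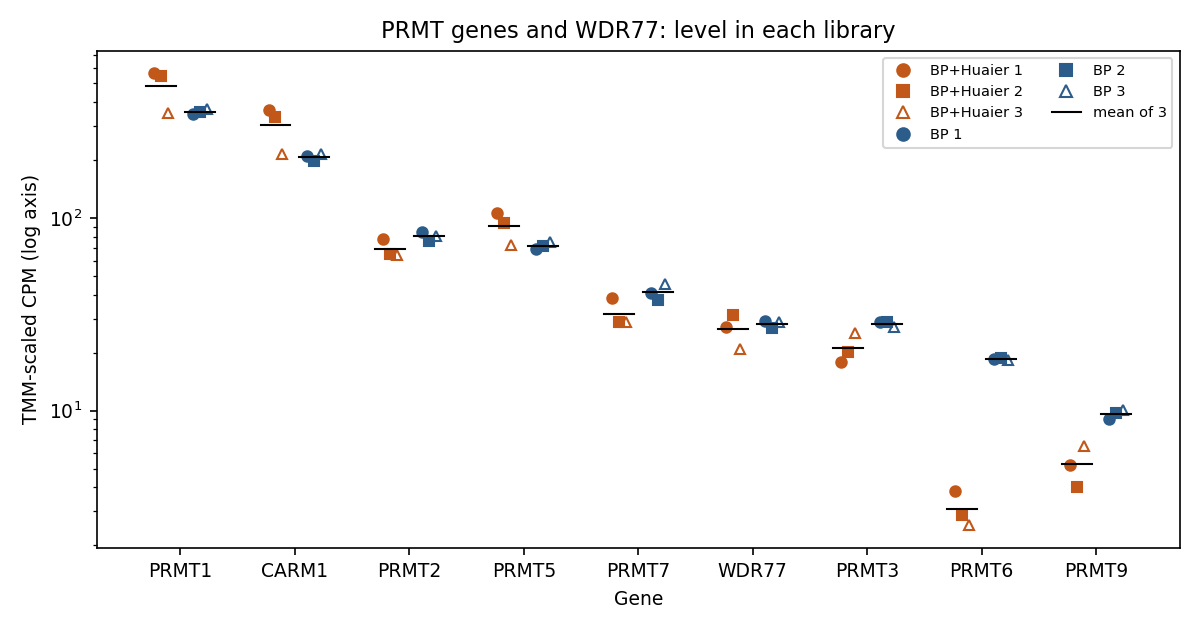
TMM-scaled CPM on a log axis (vertical) of each gene (horizontal), with the 3 BP+Huaier libraries to the left of the 3 BP libraries and a line at the mean of 3. PRMT6 lies between 2.54 and 3.84 CPM in BP+Huaier and between 18.2 and 18.8 CPM in BP, and PRMT1 and CARM1 are high in BP+Huaier 1 and 2 and near the BP libraries in BP+Huaier 3.

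PRMT9 was the other member called lower. PRMT9 (ENSG00000164169.13, chromosome 4, 147637785 to 147684163, minus strand) is a type II enzyme whose known substrate is the splicing factor SF3B2. It had 5.24, 3.99 and 6.57 CPM in BP+Huaier 1, 2 and 3, against 9.01, 9.69 and 10.1 CPM in BP 1, 2 and 3. The groups did not overlap, and BP+Huaier 3 was the nearest to BP. The fall was 1.81-fold, from the fitted log2 fold change of -0.86 ± 0.21 (SE), on 54 to 114 counts in BP+Huaier and 164 to 182 in BP. Without BP 1, 2 or 3 the log2 fold change was -0.90, -0.85 and -0.80 and no longer past the threshold, and the same held without BP+Huaier 2, at -0.68.

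The other type I enzymes went in different directions and none passed the threshold. PRMT1 (ENSG00000126457.22, chromosome 19, 49675786 to 49689029), the enzyme responsible for most asymmetric dimethylarginine in mammalian cells, had 563, 542 and 351 CPM in BP+Huaier 1, 2 and 3, against 346, 356 and 367 CPM in BP 1, 2 and 3. It was high in BP+Huaier 1 and 2, while BP+Huaier 3 lay within the BP range. The fitted log2 fold change was 0.45 ± 0.19 (SE). CARM1 (ENSG00000142453.12, chromosome 19, 10871553 to 10923075), a coactivator that methylates histone H3 and splicing factors, had 363, 334 and 214.0 CPM in BP+Huaier 1, 2 and 3, against 209, 198 and 213.8 CPM in BP 1, 2 and 3. The groups were separated only by the gap between BP+Huaier 3 and BP 3, and the log2 fold change was 0.55 ± 0.20 (SE).

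PRMT3 (ENSG00000185238.13, chromosome 11, 20387558 to 20509338), a cytosolic zinc finger enzyme that methylates the ribosomal protein RPS2, had 17.8, 20.1 and 25.3 CPM in BP+Huaier 1, 2 and 3, against 28.8, 28.7 and 27.0 CPM in BP 1, 2 and 3. The groups did not overlap, but BP+Huaier 3 was close to BP, and the log2 fold change was -0.42 ± 0.16 (SE). PRMT2 (ENSG00000160310.18, chromosome 21, 46635595 to 46665124), an SH3 domain enzyme with weak activity of its own, had 77.6, 65.1 and 64.3 CPM in BP+Huaier 1, 2 and 3, against 84.6, 75.7 and 81.0 CPM in BP 1, 2 and 3. The groups overlapped, since BP+Huaier 1 lay above BP 2, and the log2 fold change was -0.22 ± 0.14 (SE). PRMT8, the brain-enriched paralog of PRMT1 and not among the 9 genes, had 0 counts in all 6 libraries.

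Neither PRMT5 nor its partner passed the threshold, and their libraries were ordered differently. PRMT5 (ENSG00000100462.16, chromosome 14, 22920525 to 22929408), the main type II enzyme, had 107, 94.4 and 72.3 CPM in BP+Huaier 1, 2 and 3, against 69.2, 71.6 and 74.7 CPM in BP 1, 2 and 3. As with PRMT1, BP+Huaier 1 and 2 were above every BP library and BP+Huaier 3 was among them, with a log2 fold change of 0.34 ± 0.16 (SE). WDR77 (ENSG00000116455.14, chromosome 1, 111439890 to 111449256), the WD repeat subunit that PRMT5 needs for full activity, had 27.0, 31.5 and 20.9 CPM in BP+Huaier 1, 2 and 3, against 29.2, 26.7 and 28.9 CPM in BP 1, 2 and 3. Its groups overlapped, with both the highest and the lowest value in BP+Huaier, and the log2 fold change was -0.10 ± 0.17 (SE). Per length of exon, the ratio of PRMT5 to WDR77 levels was 3.23, 2.46 and 2.83 in BP+Huaier 1, 2 and 3, against 1.94, 2.20 and 2.12 in BP 1, 2 and 3.

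PRMT7 (ENSG00000132600.17, chromosome 16, 68310974 to 68358584), the type III enzyme, had 38.2, 28.7 and 28.8 CPM in BP+Huaier 1, 2 and 3, against 40.6, 37.3 and 45.3 CPM in BP 1, 2 and 3. BP+Huaier 2 and 3 were lower than every BP library and BP+Huaier 1 was not, with a log2 fold change of -0.36 ± 0.16 (SE). With a per-library trend on transcript GC content and length removed, PRMT7 was called lower, at -0.50, and with scaling by library size alone PRMT7 and PRMT2 were called lower, at -0.63 and -0.49. Lower calls over all genes were 2853 of 14896 and 2959 of 15022 in these fits, against 2246 in the main fit. Scaling by library size alone also moved the median log2 fold change over all genes from -0.02 to -0.28.

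**Figure D2:**
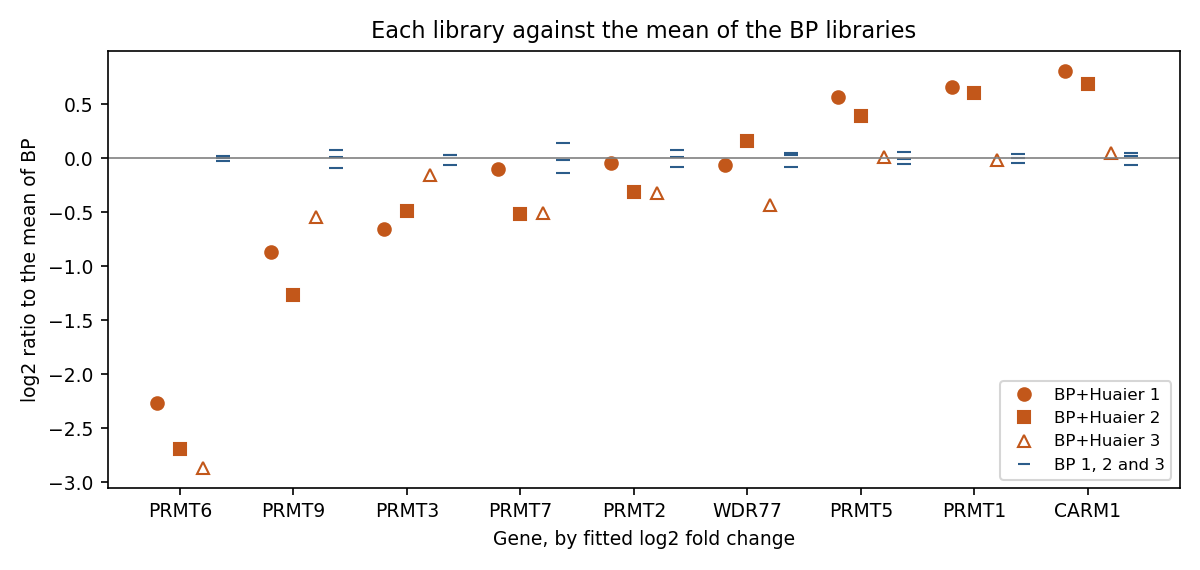
The log2 ratio to the mean of the BP libraries (vertical) for each gene (horizontal), with 1 symbol for each BP+Huaier library and dashes for the BP libraries. PRMT6 lies between -2.87 and -2.27 in all 3 BP+Huaier libraries, whereas PRMT5, PRMT1 and CARM1 lie above 0 in BP+Huaier 1 and 2 and at 0.01, -0.02 and 0.05 in BP+Huaier 3.

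Of the 9 genes 0 were called higher and 2 lower by edgeR's quasi-likelihood test with a Benjamini-Hochberg adjusted p below 0.05, where 14.4% of all tested genes were called higher and 15.0% lower. Nothing is read from the 2 calls, since the comparison was used to choose the family. At an unadjusted p under 0.05, 2 were higher and 3 lower, and the counts were 1 higher and 2 lower by DESeq2 and 0 and 2 by limma-voom. Over all 15022 tested genes DESeq2 called 2760 higher and 2434 lower, and limma-voom called 2111 and 2507. No share over all genes is given for the unadjusted p, here or for the lists below. Nothing is read from counts at that threshold. The groups did not overlap for 4 of the 9, CARM1 higher and PRMT3, PRMT6 and PRMT9 lower, where this held for 46.8% of all tested genes. The median log2 fold change was -0.22 over the 9 genes and -0.02 over all tested genes. Without BP+Huaier 3 there were 3 higher calls, for PRMT1, CARM1 and PRMT5, and 3 lower calls, for PRMT3, PRMT6 and PRMT9. In that fit 4452 of 15448 tested genes were called higher and 4793 lower. Without BP+Huaier 1 the lower calls were 3, with PRMT7 as the third, where 1845 of 15571 tested genes were called lower. Without BP 1, BP 2, BP 3 or BP+Huaier 2 only PRMT6 was called, 1 lower call each. There the calls over all genes lay between 810 and 1021 higher and between 909 and 1056 lower.

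Members differed in GC content, and the libraries differed by it too. The longest transcript of PRMT3 has 34.8% GC, that of PRMT9 41.3%, PRMT6 47.4%, PRMT5 51.9%, PRMT1 56.8%, PRMT7 57.4% and CARM1 61.9%. With that trend removed, as for PRMT7 above, the log2 fold change was 0.15 for CARM1, 0.18 for PRMT1, 0.22 for PRMT5 and -0.22 for PRMT3, each nearer to 0 than before, and -2.61 for PRMT6. Shared exon bases add a further limit. CARM1 shared 20.2% of its exon bases with YIPF2, which is read from the other strand, and YIPF2 averaged 81.3 ± 18.8 CPM in BP+Huaier and 50.2 ± 3.53 CPM in BP (SD, n = 3 each; edgeR adjusted p = 0.021). PRMT5 shared 28.2% of its exon bases with PRMT5-AS1, which stayed at or below 0.56 CPM in every library. PRMT1 shared 7.6% with ADM5 on its own strand. WDR77 shared 25.1% with an unnamed gene on its own strand, at or below 0.36 CPM, and 3.4% with ATP5PB on the other strand, which averaged 155 ± 15.8 CPM in BP+Huaier and 167 ± 9.07 CPM in BP (SD, n = 3 each). The sources used here do not say if reads were counted by strand, so members that share exon bases, CARM1 and WDR77 among them, are uncertain to that extent.

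Per length of exon, PRMT1 was the most abundant member in both groups, and PRMT6 was the lowest in BP+Huaier and lay above PRMT9 in BP. In RPKM (TMM-scaled CPM per kilobase of exon), PRMT1 averaged 101.2 ± 24.3 in BP+Huaier and 74.3 ± 2.14 in BP, CARM1 68.7 ± 17.9 in BP+Huaier and 46.8 ± 1.87 in BP, and PRMT5 27.8 ± 5.30 in BP+Huaier and 21.9 ± 0.83 in BP (SD, n = 3 each). A middle range held WDR77 at 9.86 ± 1.97 in BP+Huaier and 10.5 ± 0.50 in BP, and PRMT2 at 9.07 ± 0.98 in BP+Huaier and 10.6 ± 0.59 in BP. PRMT3 followed at 3.84 ± 0.70 in BP+Huaier and 5.14 ± 0.18 in BP, and PRMT7 at 3.34 ± 0.57 in BP+Huaier and 4.30 ± 0.42 in BP. PRMT9 was at 1.33 ± 0.33 in BP+Huaier and 2.43 ± 0.14 in BP. PRMT6 was at 0.71 ± 0.16 in BP+Huaier and 4.27 ± 0.07 in BP. Neighbours in this order whose ranges overlapped were PRMT1 and CARM1, WDR77 and PRMT2, and PRMT3 and PRMT7 in BP+Huaier, and PRMT2 and WDR77, and PRMT7 and PRMT6 in BP.

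Within the summed RPKM of the 8 methyltransferase genes, PRMT6 made up 0.332 ± 0.042% in BP+Huaier and 2.52 ± 0.10% in BP (SD, n = 3 each). The sum itself was 252, 234 and 162.0 RPKM in BP+Huaier 1, 2 and 3, against 168, 167 and 175 RPKM in BP 1, 2 and 3, so 2 of the 3 BP+Huaier libraries were above the BP libraries and the third was below them. PRMT1 and CARM1 together carried most of it, with PRMT1 at 46.7 ± 1.52% in BP+Huaier and 43.8 ± 0.77% in BP, and CARM1 at 31.6 ± 1.49% in BP+Huaier and 27.6 ± 0.70% in BP. PRMT5 held 12.9 ± 0.66% in BP+Huaier and 12.9 ± 0.29% in BP. The RNA came from whole cultures, so fewer cells with a transcript and less of it per cell cannot be told apart.

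Among the partners of PRMT5, COPRS rose and STK38 fell. COPRS, which brings PRMT5 to histones, had 66.0, 55.0 and 35.0 CPM in BP+Huaier 1, 2 and 3, against 26.7, 22.5 and 28.1 CPM in BP 1, 2 and 3, a 2.02-fold rise (log2 1.01 ± 0.23 SE; edgeR adjusted p = 0.012). CLNS1A, the adaptor for Sm proteins, averaged 121 ± 11.6 CPM in BP+Huaier and 123 ± 6.03 CPM in BP, and RIOK1, the adaptor for other RNA-binding proteins, 23.7 ± 2.45 CPM in BP+Huaier and 18.7 ± 1.90 CPM in BP (SD, n = 3 each; edgeR adjusted p = 0.87 and 0.12). STK38, a kinase related to the Hippo pathway, fell 2.26-fold (edgeR adjusted p = 0.015). Of the 4 genes of this list 1 was called higher and 1 lower, beside 14.4% and 15.0% of all tested genes, and both calls were lost without BP 2 and without BP+Huaier 2. In a list of 6 other regulators and partners of PRMT enzymes, 4 were tested, 2 rose and 0 fell (0 also at an unadjusted p under 0.05, by DESeq2 and by limma-voom). Among all tested genes 14.4% were called higher and 15.0% lower. With only 4 genes tested, the absence of falls cannot be told apart from that share. BTG1, a binding partner of PRMT1, rose 2.43-fold, with 40.0, 51.0 and 34.6 CPM in BP+Huaier 1, 2 and 3, against 16.1, 20.2 and 15.3 CPM in BP 1, 2 and 3 (edgeR adjusted p = 0.0027). TOB1, a relative of BTG1, rose 1.40-fold, a call absent when any 1 BP library or BP+Huaier 2 was omitted, leaving 1 rise in the list. Without BP+Huaier 3 the rises were 3. Over all genes that omission gave 4452 higher calls among 15448 tested.

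In the list drawn up for readers of methylarginine, which includes Tudor domain proteins, PHF1 and SMNDC1 rose and TDRD3 and LBR fell. A place in this list does not show that a protein reads methylarginine. PHF1, a Tudor domain subunit of a Polycomb complex, rose 2.44-fold, with 174, 165 and 139.5 CPM in BP+Huaier 1, 2 and 3, against 60.4, 63.2 and 72.6 CPM in BP 1, 2 and 3 (edgeR adjusted p = 0.0011). SMNDC1, a splicing factor with a Tudor domain, rose 1.47-fold, and TDRD3, a reader of asymmetric dimethylarginine on histones and RNA polymerase, fell 1.67-fold (edgeR adjusted p = 0.026 and 0.046). LBR, a Tudor domain protein of the inner nuclear membrane, fell 1.59-fold (edgeR adjusted p = 0.018). Of 19 genes 14 were tested, 2 rose, 2 fell and 10 did not pass, with a median log2 fold change of 0.08. Each direction is 14.3% of those tested, near the 14.4% higher and 15.0% lower of all tested genes. Only the PHF1 call was kept without each library in turn. Without BP 1, 2 or 3, and without BP+Huaier 2, 1 rose and 0 fell by edgeR, and without BP+Huaier 1 and 3 the rises were 2 and 5 and the falls 1 and 4. Calls over all genes also varied with the library left out, between 810 and 4452 higher and between 909 and 4793 lower, most without BP+Huaier 3.

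PRMT5 methylates Sm proteins during the assembly of small nuclear ribonucleoproteins. Of 21 genes of the SMN complex and of Sm and Sm-like proteins 4 rose, 1 fell and 16 did not pass, with a median log2 fold change of 0.14. The calls are 19.0% higher and 4.76% lower of those tested, beside 14.4% and 15.0% of all tested genes. LSM10 and LSM11, the Sm-like subunits of the U7 particle that processes histone transcripts, rose 1.70-fold and 1.81-fold (edgeR adjusted p = 0.022 and 0.0039). COIL, the marker protein of Cajal bodies, rose 1.43-fold, and LSM4 rose 1.66-fold (edgeR adjusted p = 0.023 and 0.045). GEMIN7, a subunit of the SMN complex, fell 3.47-fold at the low levels of 0.76 CPM in BP+Huaier and 2.64 CPM in BP (edgeR adjusted p = 0.0041). The LSM11 and GEMIN7 calls were kept without each library in turn. The rises numbered 1 without BP 1, 2 or 3 or BP+Huaier 2, and 9 without BP+Huaier 3. Over all genes the higher calls lay between 810 and 1021 in the former omissions and were 4452 without BP+Huaier 3.

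RNA-binding proteins that carry methylarginine made up the longest list. Of 44 genes 43 were tested, 8 rose, 5 fell and 30 did not pass, with a median log2 fold change of -0.03. The calls, 18.6% higher and 11.6% lower, compare with 14.4% and 15.0% of all tested genes. FXR2, a relative of the fragile X protein, rose 2.46-fold, with 238, 223 and 145 CPM in BP+Huaier 1, 2 and 3, against 77.4, 78.7 and 90.6 CPM in BP 1, 2 and 3 (edgeR adjusted p = 0.0029). ALYREF, an mRNA export adaptor, and RBM15, which recruits the RNA adenosine methyltransferase, rose 1.98-fold and 1.94-fold (edgeR adjusted p = 0.031 and 0.010). SFPQ, a paraspeckle protein, fell 2.43-fold, with 149, 127 and 196 CPM in BP+Huaier 1, 2 and 3, against 396, 386 and 367 CPM in BP 1, 2 and 3 (edgeR adjusted p = 0.0020). Further falls were RBMX at 1.81-fold, TAF15 at 1.41-fold and DHX9 at 1.39-fold (edgeR adjusted p between 0.0029 and 0.044). SF3B2, the substrate of PRMT9, rose 1.66-fold, with 540.0 ± 121 CPM in BP+Huaier and 324 ± 17.0 CPM in BP (SD, n = 3 each; edgeR adjusted p = 0.018). RPS2, the substrate of PRMT3, averaged 5803 ± 2076 CPM in BP+Huaier and 3890 ± 403 CPM in BP and did not pass (edgeR adjusted p = 0.12). The calls of FXR2, SFPQ and RBMX were kept without each library in turn, that of RBM15 was lost without BP 2, and those of ALYREF, TAF15 and DHX9 were kept only without BP+Huaier 3. The SF3B2 call was lost without BP 1, 2 or 3 and without BP+Huaier 2. Without BP 1, 2 and 3 the rises were 3, 2 and 3 and the falls 2, 3 and 2, and without BP+Huaier 1, 2 and 3 the rises were 4, 3 and 14 and the falls 3, 2 and 16. Over all genes, higher calls without BP 1, 2 and 3 were 810, 834 and 1021, and lower calls 909, 938 and 1056. Without BP+Huaier 1, 2 and 3 they were 1775, 952 and 4452 higher and 1845, 1015 and 4793 lower.

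Of 25 genes for methylated chromatin and DNA repair proteins 23 were tested, 4 rose, 4 fell and 15 did not pass, with a median log2 fold change of 0.06. Each direction is 17.4% of those tested, near the 14.4% higher and 15.0% lower of all tested genes. HMGA1, a chromatin protein that PRMT6 methylates, had 3241, 2993 and 1914 CPM in BP+Huaier 1, 2 and 3, against 1383, 1280 and 1518 CPM in BP 1, 2 and 3, a 1.95-fold rise (edgeR adjusted p = 0.011). POLB, a repair polymerase and PRMT6 substrate, averaged 21.2 ± 0.77 CPM in BP+Huaier and 18.8 ± 2.54 CPM in BP and did not pass (edgeR adjusted p = 0.40). E2F1, a cell cycle factor that PRMT1 and PRMT5 methylate, rose 2.06-fold, RAD9A 1.76-fold and SUPT5H 1.54-fold (edgeR adjusted p between 0.0074 and 0.023). The coactivator NCOA2 fell 2.43-fold, SAMHD1 1.71-fold, TP53BP1 1.66-fold and MED12 1.29-fold (edgeR adjusted p between 0.0053 and 0.046). Without BP+Huaier 3 the fall of NCOA2 was 3.78-fold. Calls of E2F1 and SAMHD1 were kept without each library in turn. HMGA1 was not called without BP 1, BP 2 or BP+Huaier 2, and NCOA2, TP53BP1 and MED12 were called in no omission but that of BP+Huaier 3. RAD9A and SUPT5H were not called without any 1 of the BP libraries or BP+Huaier 2. Without BP 1, 2 and 3 the rises were 1, 1 and 2 and the falls 1, 1 and 1. Without BP+Huaier 1, 2 and 3 the rises were 5, 1 and 8 and the falls 1, 1 and 8. The calls over all genes were 810 to 1021 higher without a BP library, and 4452 higher and 4793 lower without BP+Huaier 3.

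**Figure D3:**
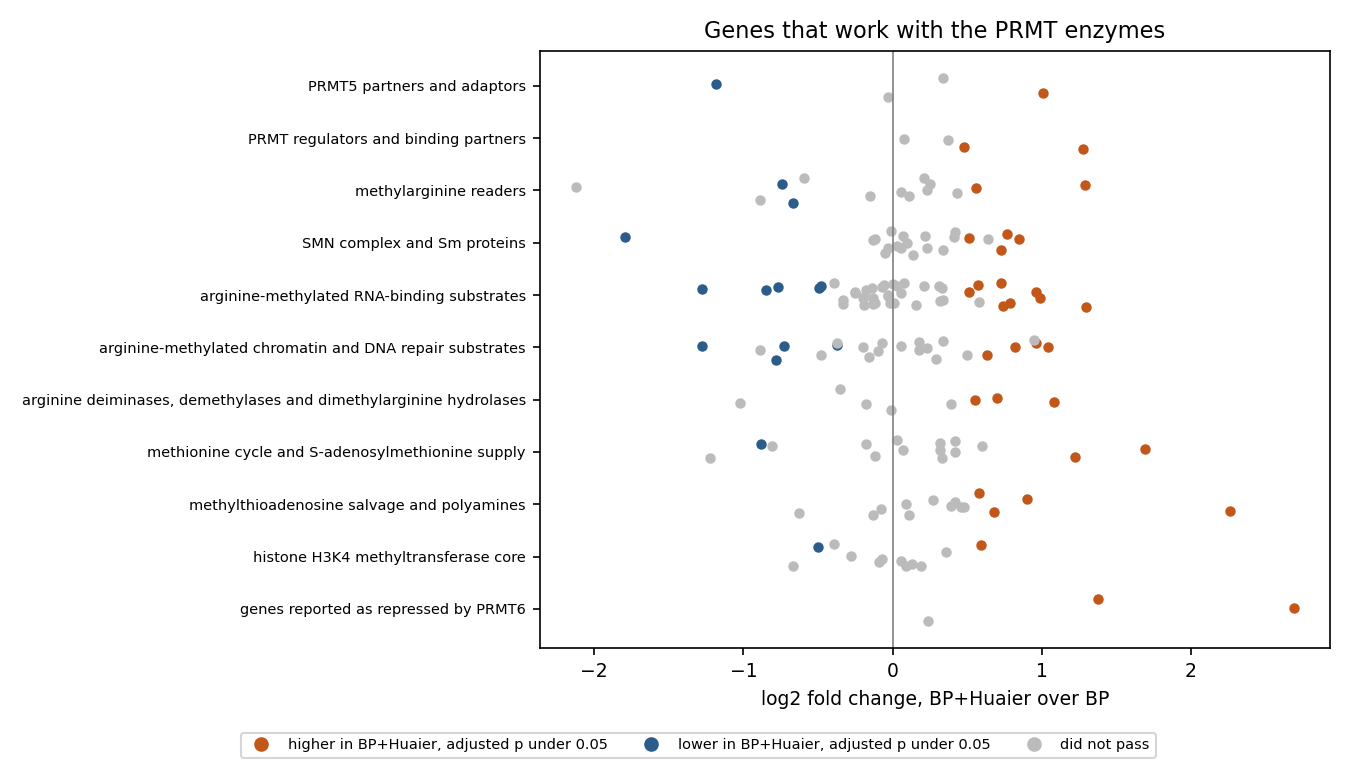
The log2 fold change of BP+Huaier over BP (horizontal) of each tested gene in the 11 lists (rows), with genes called higher or lower at an adjusted p under 0.05 in colour. Calls of both directions occur in most rows, and only rises in the rows for deiminases and demethylases, for salvage and polyamines, for PRMT regulators and for genes reported as repressed by PRMT6.

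Of the genes that remove or convert methylarginine, JMJD6 rose. JMJD6, an oxygenase reported to act on methylarginine and known to hydroxylate lysine, had 94.7, 96.1 and 66.3 CPM in BP+Huaier 1, 2 and 3, against 40.6, 39.0 and 41.5 CPM in BP 1, 2 and 3. The groups did not overlap, and the rise was 2.12-fold (log2 1.08 ± 0.17 SE; edgeR adjusted p = 0.0031). DDAH2, which is related to the dimethylarginine hydrolase DDAH1, rose 1.62-fold, and KDM5C, a lysine demethylase reported to act on arginine as well, rose 1.47-fold (edgeR adjusted p = 0.035 and 0.023). Of 13 genes 8 were tested, 3 rose and 0 fell (0 also at an unadjusted p under 0.05, by DESeq2 and by limma-voom), with a median log2 fold change of 0.19. The rises are 37.5% of those tested, beside 14.4% of all tested genes. With scaling by library size alone 1 gene fell, where the lower calls over all genes rose from 2246 to 2959. PADI2 and PADI3, arginine deiminases, were at 1.65 CPM or less in every library. The JMJD6 call was kept without each library in turn, that of DDAH2 was kept only without BP+Huaier 3, and that of KDM5C only without BP+Huaier 1 or 3. In the omissions of BP+Huaier 2 and of each BP library this left 1 rise. There the higher calls over all genes were between 810 and 1021, against 2160 with all libraries.

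Of the genes that supply S-adenosylmethionine, SLC3A2 and SLC7A5 rose, MTRR fell, and MAT2A differed widely within BP+Huaier. MAT2A, the enzyme that makes S-adenosylmethionine outside the liver, had 185, 313 and 649.5 CPM in BP+Huaier 1, 2 and 3, against 293, 292 and 272 CPM in BP 1, 2 and 3. BP+Huaier 1 was below the BP range and BP+Huaier 3 well above it, the groups overlapped, and the test was not passed (log2 0.42 ± 0.37 SE; edgeR adjusted p = 0.41). AHCY, which clears the inhibitory product S-adenosylhomocysteine, had 1355, 1231 and 754 CPM in BP+Huaier 1, 2 and 3, against 712, 746 and 752 CPM in BP 1, 2 and 3, and did not pass (edgeR adjusted p = 0.064). SLC3A2 and SLC7A5, the subunits of a transporter that imports methionine and other large amino acids, rose 3.23-fold and 2.33-fold (edgeR adjusted p = 0.0023 and 0.0022). MTRR, which reactivates methionine synthase, fell 1.84-fold (edgeR adjusted p = 0.018), a call lost without BP 1, BP 2 or BP+Huaier 2. Of 19 genes 15 were tested, 2 rose, 1 fell and 12 did not pass, with a median log2 fold change of 0.32. That is 13.3% higher and 6.67% lower, beside 14.4% and 15.0% of all tested genes. The falls were 1, 0 and 2 without BP+Huaier 1, 2 and 3 and 0, 0 and 1 without BP 1, 2 and 3, and the rises were 7 without BP+Huaier 3. That last omission raised the higher calls over all genes to 4452 of 15448, from 2160 of 15022.

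MTAP, the enzyme that recycles methylthioadenosine, an inhibitor of PRMT5, had 0 counts in all 6 libraries. Here 3 counts correspond to between 0.173 and 0.222 CPM in BP+Huaier and between 0.160 and 0.177 CPM in BP. CDKN2A, its neighbour on chromosome 9, was also at 0 in all 6. Around this missing step, SAT1, the acetyltransferase that starts polyamine breakdown, rose 4.79-fold, with 218, 431 and 360.4 CPM in BP+Huaier 1, 2 and 3, against 65.4, 77.2 and 67.9 CPM in BP 1, 2 and 3 (edgeR adjusted p = 9.0e-04). GOT1, a transaminase, rose 1.86-fold, OAZ1, the antizyme that limits polyamine synthesis, 1.61-fold, and AZIN1, the inhibitor of antizyme, 1.49-fold (edgeR adjusted p between 0.0037 and 0.025). Of 15 genes 14 were tested, 4 rose and 0 fell (0 also at an unadjusted p under 0.05, by DESeq2 and by limma-voom), with a median log2 fold change of 0.40. The rises are 28.6% of those tested, beside 14.4% of all tested genes. With the GC and length trend removed 1 gene fell, where the lower calls over all genes rose from 2246 to 2853. The calls of SAT1 and GOT1 were kept without each library in turn. The rises numbered 2 without BP 1, 2 or 3 or BP+Huaier 2, and 10 without BP+Huaier 3. Higher calls over all genes were between 810 and 1021 in the former omissions and 4452 in the latter.

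Of 12 core genes of the histone H3K4 methyltransferases, whose mark and that of PRMT6 counteract each other, 1 rose, 1 fell and 10 did not pass, which is 8.33% each way beside 14.4% higher and 15.0% lower of all tested genes. KMT2B rose 1.51-fold and SETD1B fell 1.42-fold (edgeR adjusted p = 0.013 and 0.044), and the median log2 fold change was -0.01. The KMT2B call was lost without BP 1 or BP 2, and that of SETD1B without each library other than BP+Huaier 3, where 3 rose and 3 fell. In that omission 4452 of 15448 tested genes were called higher and 4793 lower.

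Of the genes reported as repressed by PRMT6, CDKN1A and CDKN1B rose. CDKN1A, the cyclin-dependent kinase inhibitor p21, had 19.4, 29.3 and 14.0 CPM in BP+Huaier 1, 2 and 3, against 3.24, 2.98 and 3.48 CPM in BP 1, 2 and 3, a 6.44-fold rise (log2 2.69 ± 0.28 SE; edgeR adjusted p = 8.9e-04). CDKN1B, the related inhibitor p27, had 201, 240 and 180.2 CPM in BP+Huaier 1, 2 and 3, against 78.2, 81.6 and 78.7 CPM in BP 1, 2 and 3, a 2.60-fold rise (log2 1.38 ± 0.15 SE; edgeR adjusted p = 8.9e-04). In both genes the groups did not overlap and BP+Huaier 2 was the highest library. PRMT6 was lowest in BP+Huaier 3 by scaled CPM but in BP+Huaier 2 by raw counts, at 44 and 39 counts. The order of PRMT6 between these libraries is therefore not settled. THBS1 was at 0 in every BP+Huaier library and at 0, 0 and 2 counts in BP 1, 2 and 3, under the level of 3 counts, and CDKN2A was at 0. Of the 5 genes 3 were tested, 2 rose and 0 fell (0 also at an unadjusted p under 0.05, by DESeq2 and by limma-voom), and the median log2 fold change was 1.38. The rises are 66.7% of those tested, beside 14.4% of all tested genes. The CDKN1A and CDKN1B calls were kept without each library in turn, and without BP+Huaier 3 the rises were 3. In that last fit 4452 of 15448 tested genes were called higher. A link of the rises in this list to PRMT6 was not tested.

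**Figure D4:**
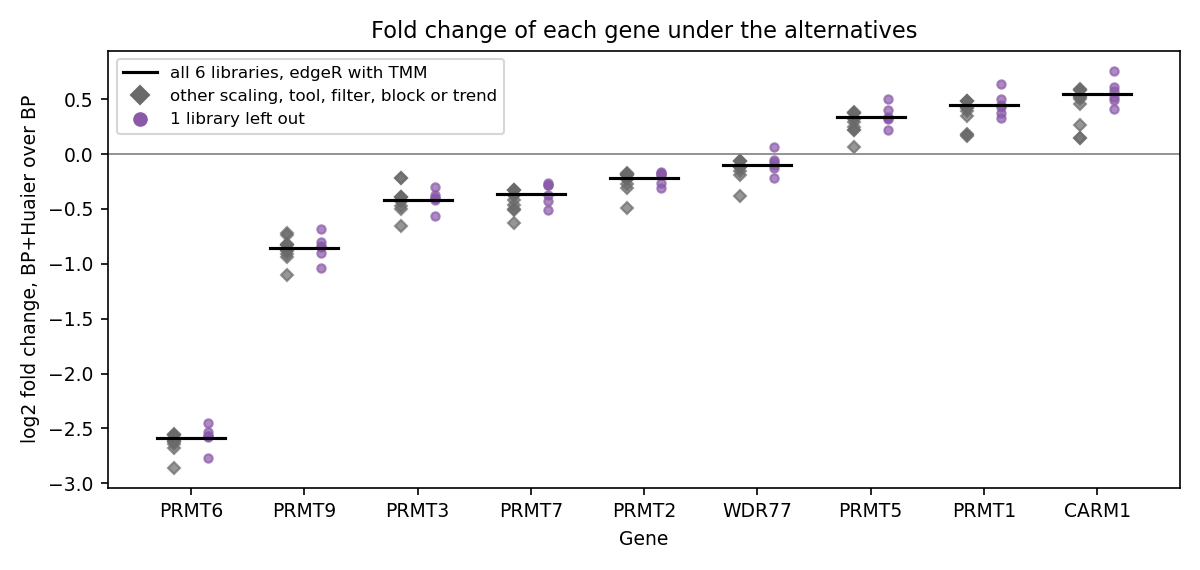
The log2 fold change of BP+Huaier over BP (vertical) of each of the 9 genes (horizontal) with all 6 libraries (line), under another scaling, tool, filter, block or trend removal (diamonds) and with 1 library left out (circles). PRMT6 stays between -2.86 and -2.45 in every fit, and the values of CARM1 and PRMT1 lie on the side of BP+Huaier in all of them and come closest to 0 after trend removal or with scaling by library size alone.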

How the data were processed

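Per the labels' protocols, TRIzol RNA was made into NEBNext Ultra libraries and read as 150 bp pairs. The submitters' processing notes name fastp 0.20.0, HISAT2 2.1.0, featureCounts 1.6.1 and GRCh38. How strand, overlapping genes and reads with several places were handled was not given in the sources used here. Deposited values are raw counts per gene, 1 column per library, matched by title. Left out were 44 second copies of genes on the Y chromosome, all at 0, and 1 gene whose lines were broken, with at most 147 counts. Symbols matched 99.77% of the IDs. GC content and biotypes came from GENCODE release 29 and promoters from RefSeq.

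Counts were tested in R 4.3.3 with edgeR 4.0.16 (filterByExpr, TMM, robust quasi-likelihood test, group as the only term, Benjamini-Hochberg over all genes tested, threshold 0.05). The standard error is that implied by the test. Alternatives used DESeq2 1.42.0 and limma 3.58.1. The steps were checked on simulated counts. There each change was the same in every library of a group, so a library such as BP+Huaier 3 was not covered. Any interval or level of 3 counts covers counting error only. Counts of libraries within a group differed by 3.76 to 78.8 times the sampling variance, so all were counted separately.

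The 9 genes and the 11 lists were chosen with earlier results of these data known. Named besides the 9 were fixed partners, the up to 4 most changed called genes of each list with a mean of at least 5 CPM, overlapping and neighbouring genes, and the 5 genes most like PRMT6. GEMIN7, RBMX, TAF15, DHX9, SF3B2, RPS2, POLB, SUPT5H, SAMHD1, TP53BP1, MED12, PADI2, PADI3 and CDKN2A were named after their values were seen. Some genes are in 2 lists each, among them LSM4, SMN1, SMN2 and TOP3B. Some list members are not reported here by name, though they enter the counts.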

Additional observations from a re-analysis of the deposited data

How the results depend on the processing

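The log2 fold change of PRMT6, on which the family was chosen, lay between -2.86 and -2.45 over 16 other fits, given as a description. Over the 9 genes and these fits, 128 of 144 values stayed on the same side of the threshold, 4 lost a call, 12 gained one and 0 called values changed sign. Over all genes the 2160 higher and 2246 lower calls became 1051 and 2959 with scaling by library size alone, where the median over all genes was -0.28 on the log2 scale, against -0.02 with TMM. They became 826 and 810 at an adjusted p under 0.01, where fewer calls follow from the threshold itself, and 1521 and 1373 among genes of at least 5 CPM, where fewer genes were tested. With 1 library left out, higher calls lay between 810 and 4452 and lower calls between 909 and 4793, the lowest without BP 1 and the highest without BP+Huaier 3. With the replicate number as a block they were 1357 and 1742, and the 9 genes had 0 higher and 2 lower calls as without the block. Deviations from the group mean correlated at 0.0085, -0.056 and -0.28 between same-numbered libraries 1, 2 and 3. Pairs with unlike numbers lay between -0.256 and 0.256. The labels do not say what same-numbered libraries share. These correlations cannot settle it, since deviations within a group are tied to sum to 0. Levels near 3 counts, such as those of THBS1 and PRMT5-AS1, are limited by depth.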
